A study of Mus musculus and Rattus norvegicus with 26 samples.

Results

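The 4 genes of the AMPA receptor subunits, Gria1, Gria2, Gria3 and Gria4, were taken from 6 lists of CIRTs, that is, of cytoplasmic intron-sequence retaining transcripts, by the gene symbol printed on each contig. A contig is a stretch of an intron under clustered reads. The 4 genes gave 139 of the 112345 contigs and 73 of the 85860 introns by list, and the lists name 13686 genes in all. Each list pools the libraries of 1 condition. Mouse dendrites (3 libraries) and mouse somas (3 libraries) came from hippocampal neurons of C57BL/6 mice of embryonic day 18, and rat dendrites (2 libraries) and rat somas (3 libraries) from Sprague-Dawley rats of embryonic day 18. That is the age at which the hippocampi were taken, and the neurons were then grown for many days in primary culture before harvest. A dendrite library holds many processes cut by hand and pooled, from which axons were not separated, while a soma library is described in the study as a single cell body. BAT cells (6 libraries) are single cells of interscapular brown adipose tissue from CD-1 mice of embryonic day 17.5, picked by their shape. Cardiomyocytes (9 libraries) are single ventricular cells of transgenic C57BL/6 embryos of day 14.5, which are hemizygous for the Fucci probe mAG-hGem (1/110), a cell cycle reporter under the ubiquitous CMV promoter, and which were sorted by fluorescence and viability. The labels assign these 6 and 9 libraries to the lists of BAT cells and cardiomyocytes, but the study describes fewer cells of both kinds, and which libraries entered is not settled here. All 26 libraries were amplified 3x by aRNA, in which a poly(T) primer with a T7 promoter starts a linear transcription, and no group was given a treatment.

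AMPA receptors are glutamate-gated cation channels built from GluA1 to GluA4, the products of Gria1 to Gria4, and they carry most of the fast excitatory transmission in the hippocampus. Neurons change the strength of a synapse by adding receptors to it or removing them, and mRNAs of subunits are known to reach dendrites, where they can be translated. The GluA2 subunit, edited at its Q/R site by an adenosine deaminase acting on RNA, makes the channel almost impermeable to calcium, and that editing needs a sequence in an intron of Gria2. Each gene also carries a pair of mutually exclusive exons, flip and flop, close to its 3′ end.

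The lists held between 1007530 reads (rat dendrites) and 17858440 reads (BAT cells), each read count belonging to a whole intron and taken once. Neuronal markers had listed introns in all 4 neuronal lists (6 of 9 in mouse dendrites and in mouse somas, 1 of 9 in rat dendrites, 3 of 9 in rat somas), brown adipocyte markers in BAT cells (8 of 10, Ucp1 among them) and cardiomyocyte markers in cardiomyocytes (8 of 10, Myh6 and Tnnt2 among them). Of all genes in any mouse list, mouse dendrites held 69%, mouse somas 47.3%, BAT cells 82% and cardiomyocytes 49.8%. Of those in any rat list, rat dendrites held 78.5% and rat somas 59.4%. Mouse dendrites also listed 7 of 8 glial and 6 of 10 brown adipocyte markers, and BAT cells 5 of 9 neuronal markers. Mouse somas listed 2 of 10 brown adipocyte markers and cardiomyocytes 1 of 9 neuronal markers. Map2 had no listed intron in any neuronal list, nor had Nkx2-5 in cardiomyocytes, and a gene without one may still have an mRNA. Because the libraries are pooled, no value carries an error between libraries and no difference between lists was tested. Intervals are 95% intervals of counting error only, for reads that PCR can multiply. Somas, BAT cells and cardiomyocytes include the nucleus, so nuclear and cytoplasmic intronic reads cannot be told apart in them, and in pooled dendrites fewer dendrites with an RNA and less RNA per dendrite cannot be told apart.

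The stretches of intron that carry contigs of several mouse lists are shown first, since they are what the lists have in common at these genes. There were 21 of at least 40 nt, of which 12 held an adenine tract, and 9 are shown, 7 of them with a tract, so the tracts are more frequent among those shown. The share over all genes was not computed. Mouse positions are on NCBIM37 (mm9), counted from 1, and each sequence is read on the strand of the gene from the 5′ side, ending 30 nt beyond the 3′ end of the shared stretch. Of stretches too long for it, the last 300 nt so counted are shown. Capitals mark adenine tracts, that is, runs of at least 8 adenines or windows of 20 nt with at least 15 adenines. The first set is from Gria4 (minus strand) and holds the 3 stretches under contigs of mouse dendrites, mouse somas and BAT cells, in intron 5 (chr9:4531773-4532072), intron 6 (chr9:4517616-4517876) and intron 3 (chr9:4770083-4770153), and then a stretch of intron 5 that dendrites and somas shared (chr9:4533641-4533940).

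Gria4 intron 5, 3 lists: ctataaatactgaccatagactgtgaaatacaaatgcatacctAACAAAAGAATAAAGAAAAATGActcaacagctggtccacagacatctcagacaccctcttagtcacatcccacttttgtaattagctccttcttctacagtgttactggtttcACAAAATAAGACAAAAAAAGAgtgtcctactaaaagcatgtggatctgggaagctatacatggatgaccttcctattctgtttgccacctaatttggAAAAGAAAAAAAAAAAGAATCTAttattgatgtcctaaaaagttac
Gria4 intron 6, 3 lists: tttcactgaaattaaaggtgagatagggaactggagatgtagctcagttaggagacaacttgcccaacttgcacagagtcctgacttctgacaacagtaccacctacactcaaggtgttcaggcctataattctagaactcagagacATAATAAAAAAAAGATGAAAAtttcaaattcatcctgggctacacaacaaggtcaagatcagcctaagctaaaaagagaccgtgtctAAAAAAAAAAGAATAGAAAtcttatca
Gria4 intron 3, 3 lists: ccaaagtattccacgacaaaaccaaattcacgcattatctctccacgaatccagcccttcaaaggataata
Gria4 intron 5, dendrites and somas: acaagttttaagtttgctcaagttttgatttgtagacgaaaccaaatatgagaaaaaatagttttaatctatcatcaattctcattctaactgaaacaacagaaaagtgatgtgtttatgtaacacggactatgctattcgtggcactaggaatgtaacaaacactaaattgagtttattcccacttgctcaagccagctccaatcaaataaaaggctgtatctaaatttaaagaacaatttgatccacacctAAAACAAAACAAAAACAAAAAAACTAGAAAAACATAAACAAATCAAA

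In intron 5 the dendrite contig and the BAT contig ended at the same base, 4531803, the last of a run of 11 adenines, while the stretch in intron 3 has no tract. The second set is from Gria1 (plus strand), intron 4 (chr11:57013586-57013884), and from Gria3 (plus strand), where intron 14 (chrX:39024897-39025196) was shared by dendrites and somas, intron 4 (chrX:38902598-38902897) and intron 10 (chrX:38962031-38962323) by dendrites and cardiomyocytes, and intron 12 (chrX:39000750-39000889) by somas and BAT cells.

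Gria1 intron 4: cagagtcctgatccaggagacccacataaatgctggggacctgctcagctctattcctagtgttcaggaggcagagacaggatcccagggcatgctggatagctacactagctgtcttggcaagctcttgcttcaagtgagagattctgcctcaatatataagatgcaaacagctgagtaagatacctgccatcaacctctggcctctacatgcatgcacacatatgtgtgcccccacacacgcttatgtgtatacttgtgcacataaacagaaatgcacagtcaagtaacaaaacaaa
Gria3 intron 14: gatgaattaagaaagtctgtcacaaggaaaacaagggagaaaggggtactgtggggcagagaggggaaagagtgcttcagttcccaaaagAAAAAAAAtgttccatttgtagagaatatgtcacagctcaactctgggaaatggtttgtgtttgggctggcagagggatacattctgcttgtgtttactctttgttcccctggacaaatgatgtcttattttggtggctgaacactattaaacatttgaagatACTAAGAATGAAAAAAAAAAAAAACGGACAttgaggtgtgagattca
Gria3 intron 4: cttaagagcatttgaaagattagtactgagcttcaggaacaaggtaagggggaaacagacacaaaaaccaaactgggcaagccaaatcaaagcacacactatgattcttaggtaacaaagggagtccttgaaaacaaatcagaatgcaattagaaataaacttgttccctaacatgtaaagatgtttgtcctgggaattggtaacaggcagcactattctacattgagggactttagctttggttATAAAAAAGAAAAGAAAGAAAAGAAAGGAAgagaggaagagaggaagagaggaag
Gria3 intron 10: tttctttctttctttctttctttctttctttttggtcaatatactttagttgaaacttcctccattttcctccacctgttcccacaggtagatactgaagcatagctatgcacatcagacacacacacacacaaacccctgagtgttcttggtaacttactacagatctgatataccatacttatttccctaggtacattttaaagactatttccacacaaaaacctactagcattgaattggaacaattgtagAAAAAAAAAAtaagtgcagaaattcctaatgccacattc
Gria3 intron 12: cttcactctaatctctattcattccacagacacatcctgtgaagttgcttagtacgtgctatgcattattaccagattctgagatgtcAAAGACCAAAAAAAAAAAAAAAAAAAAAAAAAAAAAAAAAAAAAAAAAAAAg

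The stretch of Gria3 intron 12 ran into 44 adenines in a row, and that of intron 14 into a run of 14. The stretch of Gria1 intron 4 held no tract.

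The summed level of the 4 genes differed most between mouse somas and the other lists. It is given in RPM, here the reads of a gene or intron divided by all reads of its list and multiplied by 1000000. It was 18742 RPM in mouse somas (34774 reads, interval 18547 to 18938), 2164 in rat somas (4533 reads), 1422 in rat dendrites (1433 reads), 1130 in cardiomyocytes (13784 reads), 908 in mouse dendrites (2803 reads) and 750 in BAT cells (13385 reads). The intervals of neighbours in this order do not overlap, but they hold no spread between libraries, and the order depended on the setting. Rat somas were the lowest of the 6 lists, at 30.6 RPM, with introns that had a contig of at most 400 nt (rat dendrites, 2015 RPM) and, at 81.4 RPM, without the most read intron of each gene (rat dendrites, 5526 RPM). These settings were applied to all genes of a list. The reads were then divided by those of the introns left in the list, so a level can rise where reads are taken out. With contigs of at most 400 nt cardiomyocytes (2876 RPM) also stood above rat dendrites. Mouse somas stood first under both settings. All 4 genes had a listed intron in mouse dendrites, mouse somas and BAT cells, and 2 of 4, Gria3 and Gria4, had one in cardiomyocytes. Of the genes in any mouse list, 69% were in mouse dendrites, 47.3% in mouse somas, 82% in BAT cells and 49.8% in cardiomyocytes. Gria3 and Gria4 were in all 4 mouse lists, as were 24.6% of the genes in any mouse list. Rat dendrites and rat somas each held 3 of 4, without Gria1, where 78.5% and 59.4% of the genes in any rat list were present.

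**Figure D1:**
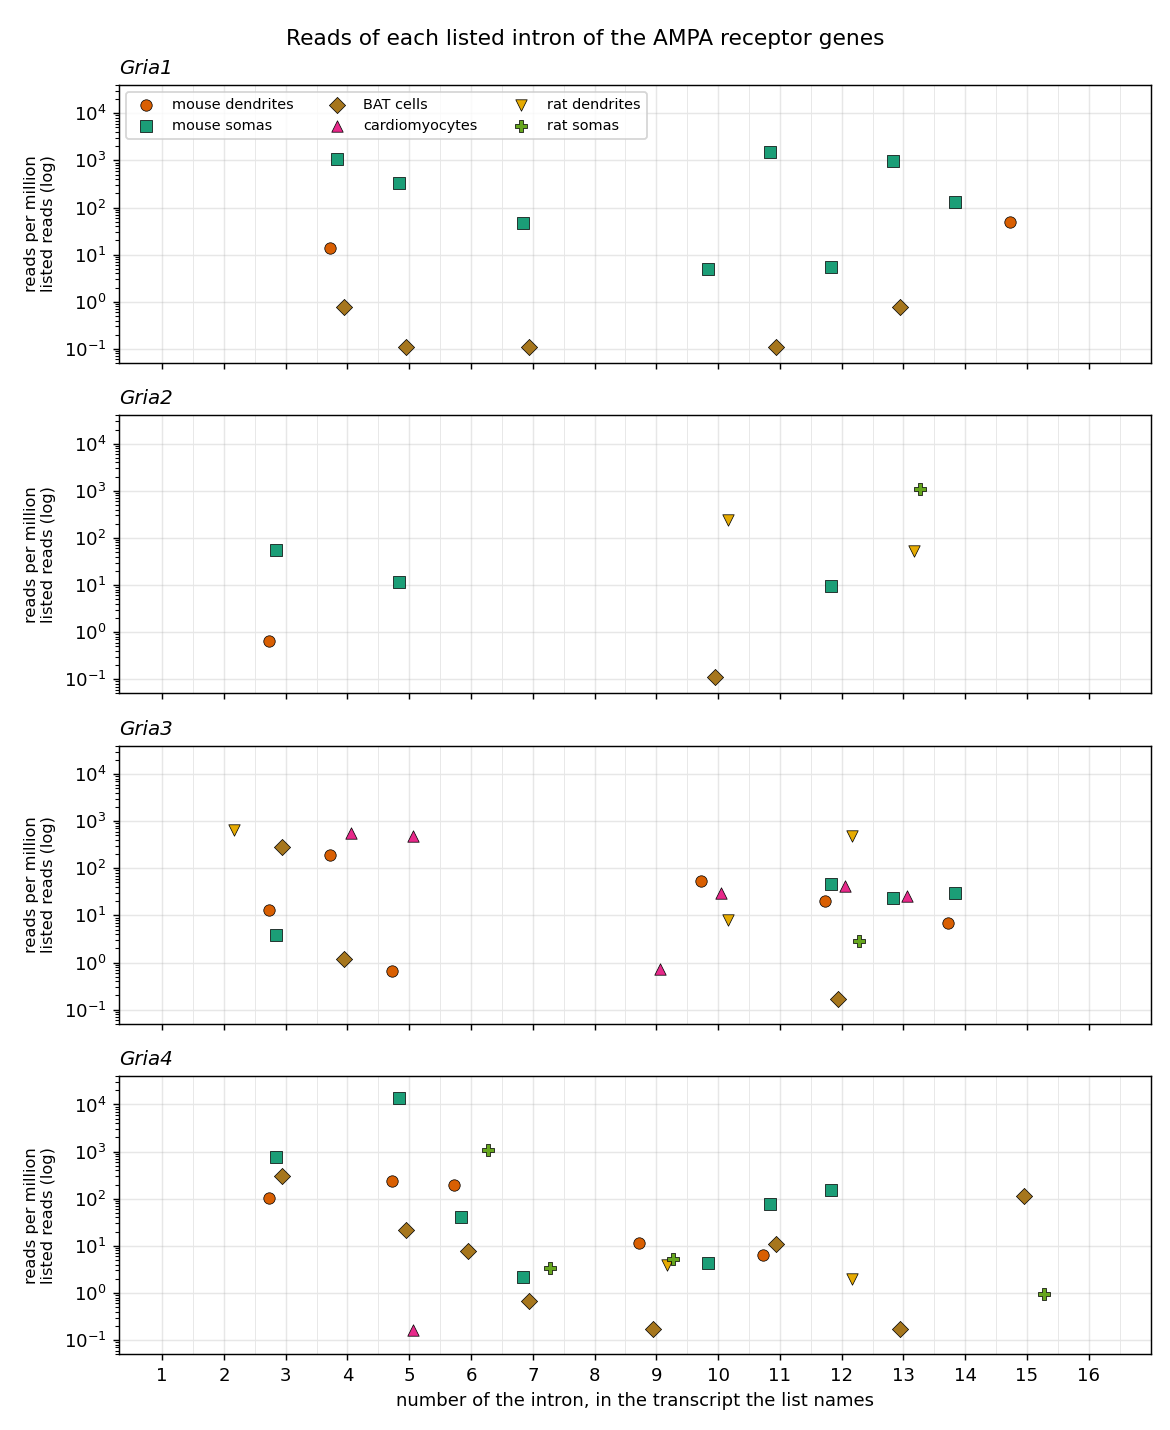
Reads of every listed intron of Gria1 to Gria4 in RPM (log axis) against the number of the intron in the transcript that the list names, 1 symbol per list. The point of intron 5 of Gria4 in mouse somas is the highest, and introns 1 hold no point.

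Gria4 encodes GluA4, a subunit with fast kinetics that is known from early hippocampal development and from interneurons. Its level was 14459 RPM in mouse somas (26828 reads), which placed it 3rd of 5895 genes, against 556 in mouse dendrites (1716 reads, 5 introns), 464 in BAT cells (8295 reads, 8 introns), 1071 in rat somas (2243 reads, 4 introns), 5.96 in rat dendrites (6 reads, 2 introns) and 0.164 in cardiomyocytes (2 reads, 1 intron). Mouse somas stood highest, and the 2 lists at the bottom rest on a handful of reads. Most of the reads in mouse somas belonged to 1 of its 7 listed introns, intron 5 (chr9:4519540-4537634), which held 24913 reads or 92.9% and was 2nd of the 10568 introns of that list.

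The reads of Gria4 intron 5 in mouse somas came with 4 contigs of 3669 nt in all, the longest of 1568 nt (chr9:4531165-4532732). Dendrites had 750 reads on 3 contigs there, BAT cells 382 reads on 2 contigs and cardiomyocytes 2 reads on 1 contig of 104 nt. Intron 5 was thus the only Gria4 intron with reads in all 4 mouse lists. The second most read intron of the gene differed between lists. In mouse dendrites it was intron 6 (chr9:4513382-4519485), with 592 reads on a single contig of 243 nt, in mouse somas intron 3 (chr9:4665008-4793809), with 1396 reads on 6 contigs.

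BAT cells had a different order, with intron 3 first (5499 reads on 12 contigs of 8259 nt in all) and intron 15 (chr9:4424455-4432772) next, with 2058 reads on 1 contig of 796 nt (chr9:4425258-4426053). Intron 15 had no listed contig in the other mouse lists. The remaining listed introns of Gria4 held 12 or fewer reads each in BAT cells apart from intron 5 (382 reads), intron 6 (142 reads) and intron 11 (196 reads). In mouse somas the others were introns 6 (76 reads), 7 (4 reads), 10 (8 reads), 11 (146 reads) and 12 (285 reads). In mouse dendrites they were introns 3 (318 reads), 9 (36 reads) and 11 (20 reads).

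Gria3 encodes GluA3, which pairs with GluA2 in many receptors of the adult hippocampus, and its gene is X-linked. Cardiomyocytes held its highest level, 1130 RPM (13782 reads, 6 introns), close to the 1120 of rat dendrites (1128 reads, 3 introns), with counting intervals of 1111 to 1149 and 1056 to 1187 that overlap. Next were mouse dendrites at 288 (890 reads, 6 introns) and BAT cells at 283 (5054 reads, 3 introns), whose intervals, 270.0 to 308 and 275 to 291, also overlap. Mouse somas were lower, at 103 (192 reads, 4 introns), and rat somas lowest, at 2.86 (6 reads, 1 intron). Gria3 thus held 99.99% of the reads of the 4 genes in cardiomyocytes and 78.7% in rat dendrites but 0.552% in mouse somas.

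One intron held most Gria3 reads in mouse dendrites, BAT cells and both rat lists, while in cardiomyocytes the most read intron held 48.7% and in mouse somas 44.3%. Intron 4 (chrX:38894441-38923064) held 594 reads on 3 contigs in mouse dendrites and 6716 reads on 3 contigs in cardiomyocytes, but 21 reads on 3 contigs in BAT cells and no listed contig in mouse somas. BAT cells had 99.5% of their Gria3 reads in intron 3 (chrX:38831977-38894252), which held 5030 reads on 7 contigs there, 40 reads on 4 contigs in dendrites and 7 reads on 2 contigs in somas. None of those contigs overlapped between lists. In mouse dendrites the second intron was intron 10 (chrX:38951838-38963090, 170 reads on 1 contig of 362 nt).

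Mouse somas had intron 12 (chrX:38974173-39007182) as the most read intron of Gria3, with 85 reads on a contig of 579 nt, and intron 14 (chrX:39022793-39025395) next, with 56 reads on a contig of 555 nt. Intron 12 was listed in all 4 mouse lists, with 63 reads in dendrites, 514 in cardiomyocytes and 3 in BAT cells, and an intron numbered 12 of the rat gene was listed in rat dendrites (478 reads) and rat somas (6 reads). Whether the rat and mouse introns of that number correspond was not tested. Except for the overlap of somas and BAT cells shown above, the contigs of intron 12 lay in different places. The other listed introns of Gria3 were introns 5 (2 reads) and 14 (21 reads) in mouse dendrites, introns 3 (7 reads) and 13 (44 reads) in mouse somas, and introns 9 (9 reads), 10 (363 reads) and 13 (315 reads) in cardiomyocytes.

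Cardiomyocyte contigs of Gria3 lay on both sides of exon 5 (chrX:38923065-38923118, 54 nt). The contig of intron 4 ended 1 nt before that exon (chrX:38922665-38923063, 399 nt) and the contig of intron 5 (chrX:38923119-38923487, 369 nt) began directly behind it, and intron 5 held 5865 reads on that contig alone. The sequence of the exon, in capitals, is shown with 100 nt of each intron to place the ends of both contigs (chrX:38922965-38923218).

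Gria3 exon 5 with flanks: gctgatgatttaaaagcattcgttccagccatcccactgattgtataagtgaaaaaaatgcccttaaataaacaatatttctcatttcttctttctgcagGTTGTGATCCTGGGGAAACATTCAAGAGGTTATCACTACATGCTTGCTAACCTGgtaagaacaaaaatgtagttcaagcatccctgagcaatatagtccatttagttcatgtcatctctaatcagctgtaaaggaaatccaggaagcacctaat

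Mouse dendrites had 2 reads in intron 5, on a contig of 194 nt far from the exon, and neither mouse somas nor BAT cells had a listed contig in it. Of 9 neuronal markers, 1 had a listed intron in cardiomyocytes (Camk2a, 369 RPM, where the 9 summed to 273 in mouse dendrites and 5941 in mouse somas), and Map2, Rbfox3, Snap25, Syt1, Tubb3, Gap43, Dcx and Slc17a7 had no listed intron there, nor had any of 8 glial markers. In BAT cells 5 of 9 neuronal markers were listed, at 643 RPM, without Map2, Rbfox3, Tubb3 and Slc17a7. The part of such transcripts in the AMPA receptor reads of BAT cells and cardiomyocytes was not tested. Glial markers were listed beside these genes in neurons too, 7 of 8 at 77.4 RPM in mouse dendrites and 4 of 8 at 195 RPM in mouse somas, and brown adipocyte markers at 448 RPM (6 of 10) in mouse dendrites and 2.16 RPM (2 of 10) in mouse somas. The neuronal sums leave out a gene not reported here and are too low by its reads. Cardiomyocyte markers were at 519 RPM (5 of 10) in mouse dendrites and at 10.2 RPM (2 of 10) in mouse somas. They were at 2780 RPM (6 of 10) in BAT cells, and brown adipocyte markers at 825 RPM (4 of 10) in cardiomyocytes. Their part in the AMPA receptor reads was not tested either.

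Gria1 encodes GluA1, the subunit that is inserted into synapses during long-term potentiation. Its level was 4101 RPM in mouse somas (7610 reads, 8 introns, 28th of 5895 genes), 63.2 in mouse dendrites (195 reads, 2 introns) and 1.90 in BAT cells (34 reads, 5 introns), and it had no listed intron in cardiomyocytes or in either rat list. Its soma reads were spread over more introns than those of Gria4, since the most read intron, intron 11 (chr11:57056622-57097011), held 36.8% of them, with 2804 reads on 3 contigs. Intron 4 (chr11:57003340-57014627) held 1996 reads on 2 contigs and intron 13 (chr11:57102998-57124109) 1843 reads on 5 contigs, and introns 5 (612 reads), 14 (248 reads), 7 (88 reads), 12 (10 reads) and 10 (9 reads) were below them.

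Mouse dendrites had 152 reads of Gria1 in intron 15 (chr11:57131303-57140944), the last intron, and 43 in intron 4. Intron 15 had no listed contig in any other mouse list, and its dendrite contig of 882 nt (chr11:57140000-57140881) ended 63 nt before the last exon. The soma contig of intron 4 at 57013586 to 57013854 lay wholly within the dendrite contig (57013573 to 57013893). BAT cells had 14 reads each in introns 4 and 13 and 2 reads each in introns 5, 7 and 11.

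Contigs of Gria1 in mouse somas bordered on the flip and flop exons, both of 115 nt. A contig of intron 13 (chr11:57122738-57123258) ended 12 nt before the exon at 57123271 to 57123385, and the first contig of intron 14 (chr11:57124226-57124288, 63 nt) began 1 nt after the exon at 57124110 to 57124224. Neither the dendrites nor the non-neuronal cells had a contig at either exon. A further soma contig began 44 nt after the start of intron 11, next to an exon of 371 nt.

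Gria2 had the fewest reads in each mouse list that named it. It had 144 reads in mouse somas (77.6 RPM), in introns 3 (104 reads), 5 (22 reads) and 12 (18 reads), 2 reads in mouse dendrites (0.648), in intron 3, and 2 reads in BAT cells (0.112), in intron 10 (chr3:80511181-80511620). Intron 3 (chr3:80536157-80544880) carried a contig of 335 nt in somas and one of 192 nt in dendrites that did not overlap, and intron 5 is at chr3:80526116-80530753. The intron behind the exon of the Q/R site, intron 11 of the annotated transcript (4231 nt), had no listed contig in any of the 4 mouse lists, nor had intron 13 (850 nt). In rat, by contrast, the level was 1090 RPM in somas (2284 reads) and 297 in dendrites (299 reads).

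All rat soma reads of Gria2 were in intron 13, on a contig of 713 nt (chr2:172271447-172272159 of rn4). Rat dendrites had 54 reads in the same intron, on a contig of 384 nt (chr2:172271492-172271875) that lay wholly within that of the somas, and 245 reads in intron 10, on a contig of 133 nt (chr2:172288856-172288988). The overlap in intron 13 was the only one between AMPA receptor contigs of the rat lists, and the share over all rat contigs was not computed. For Gria3, rat dendrites had 642 reads in intron 2 on 2 contigs (chrX:3666749-3667156 and chrX:3698699-3699296), 478 in intron 12 on 2 contigs (chrX:3483381-3484102 and chrX:3501064-3501311) and 8 in intron 10. The 6 reads of rat somas in intron 12 came with 2 contigs elsewhere in it (chrX:3478744-3478986 and chrX:3479608-3479838). For Gria4, rat somas had 2223 reads in intron 6 on a contig of 632 nt (chr8:1088964-1089595), 11 in intron 9 (chr8:1027298-1027650), 7 in intron 7 and 2 in intron 15. Rat dendrites had 4 reads of Gria4 in intron 9 (chr8:1023645-1024798) and 2 in intron 12 (chr8:1000579-1000832).

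Between genes, levels were set against the intron length of the gene. In mouse somas Gria4 held 38.8 RPM per kb of annotated intron, Gria1 13.1, Gria2 0.699 and Gria3 0.380. In mouse dendrites the order was Gria4 (1.49), Gria3 (1.06), Gria1 (0.202) and Gria2 (0.00584). BAT cells gave 1.25 for Gria4, 1.04 for Gria3, 0.00608 for Gria1 and 0.00101 for Gria2, and cardiomyocytes 4.15 for Gria3 and 0.000440 for Gria4. On this scale per length, which was used for mouse only, Gria4 stood first in dendrites, somas and BAT cells and Gria3 in cardiomyocytes. In mouse somas the first place of Gria4 rested on intron 5. Without the most read intron of each of these genes, with the full total of the list kept, Gria4 held 2.77 and Gria1 8.28. Gria3 (0.212) and Gria2 (0.194) also changed places. In BAT cells Gria3 held 0.00494 in that setting and Gria4 0.420. In mouse dendrites Gria4 then held 0.839, Gria3 0.352 and Gria1 0.0445.

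The dendrites were then compared with the somas of the same species, as shares of the listed reads. Pooled dendrites and single somas are separate samples, and somas include the nucleus. The ratios therefore do not measure where in a neuron the reads of a gene lie. In mouse, 3 of 4 genes were at least 4-fold higher in somas, a distance that 24.6% of the 4739 genes in both lists passed, and none was at least 4-fold higher in dendrites, as 32.8% were. The fold higher in somas was 64.9 for Gria1 (counting interval 56.3 to 75.2), 120 for Gria2 (32.6 to 998, from 2 dendrite reads) and 26.0 for Gria4 (24.8 to 27.3). Gria3 went the other way, 2.79-fold higher in dendrites (2.38 to 3.27). On the log2 scale of the ratio of dendrites to somas, with 0.5 reads added to each gene, the values were -6.02 for Gria1, -6.59 for Gria2, 1.48 for Gria3 and -4.70 for Gria4, beside a median of 0.23 over all genes in both lists.

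In rat, 1 of 3 genes was at least 4-fold higher in dendrites, as were 34.5% of the 2166 genes in both lists, and 1 of 3 was at least 4-fold higher in somas, as were 24.1%. Gria3 was 391-fold higher in dendrites (counting interval 179 to 1067, from 6 soma reads). Gria4 was 180-fold higher in somas (82.5 to 491, from 6 dendrite reads), and Gria2 3.67-fold (3.26 to 4.16). The log2 ratios of dendrites to somas were -1.88 for Gria2, 8.50 for Gria3 and -7.38 for Gria4, beside a median of 0.74. Set against the reads sequenced in place of those listed, the ratio of Gria2 was -2.32, past the 4-fold distance. Gria3 was therefore on the dendrite side and Gria2 and Gria4 on the soma side in both species. The share of all genes that kept their side in both species was not computed, so whether this is unusual was not tested. With listed reads as total, mouse Gria3 and rat Gria2 were under the 4-fold distance, and 62.1% of the genes in both mouse lists had a lower ratio than Gria3. Mouse Gria2 rests on 2 dendrite reads, rat Gria3 on 6 soma reads and rat Gria4 on 6 dendrite reads. Marker genes moved between the same lists. The 9 neuronal markers summed to 273 RPM in mouse dendrites and 5941 in mouse somas, and to 52.6 RPM in rat dendrites and 2605 in rat somas, while cardiomyocyte and brown adipocyte markers were higher in mouse dendrites (519 against 10.2 and 448 against 2.16 RPM). In rat, cardiomyocyte markers were at 77.4 RPM (1 of 10) in dendrites and 59.7 (1 of 10) in somas, brown adipocyte markers at 94.3 (1 of 10) and 15.8 (2 of 10), and glial markers at 68.5 (1 of 8) and 121 (3 of 8). The part of these differences in the ratios was not tested.

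**Figure D2:**
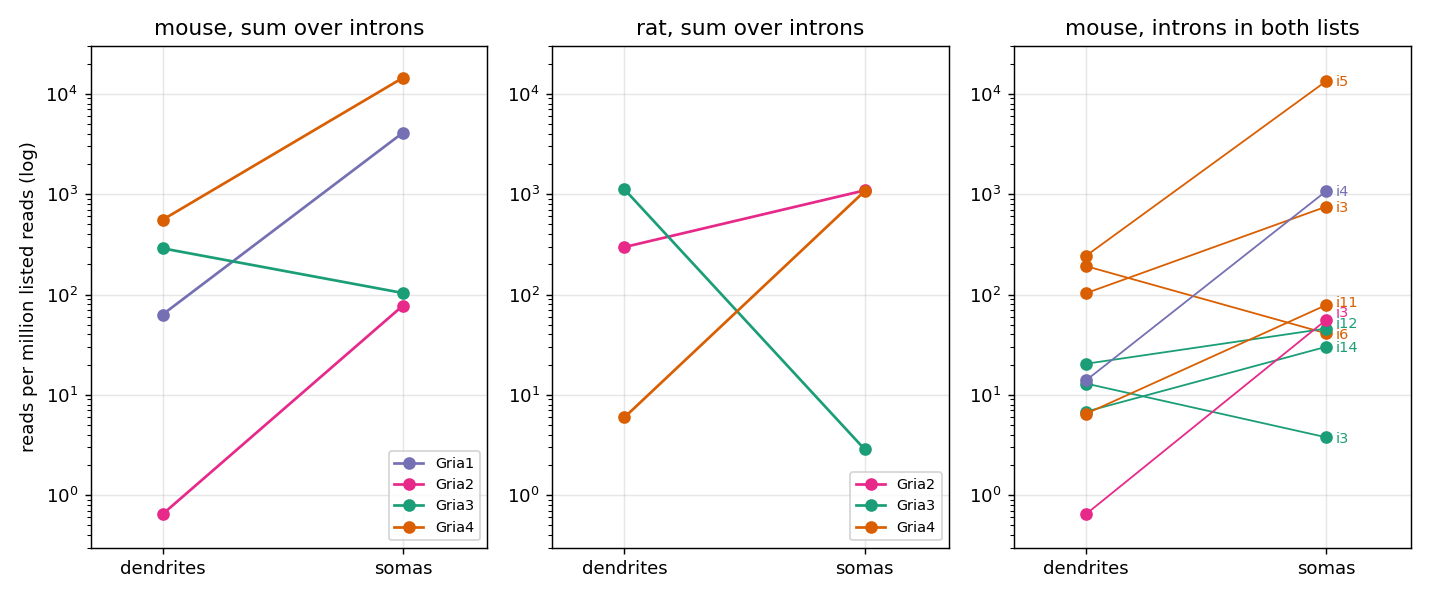
Listed reads in RPM (log axis) in dendrites and somas, as sums over the introns of each gene in mouse (left) and rat (middle) and for each mouse intron listed in both (right, i3 standing for intron 3, colours as in the left panel). Each point is 1 pooled list and has no error between libraries. Gria3 falls from left to right in both species, and intron 6 of Gria4 runs against the other introns of that gene.

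Single introns did not always follow their gene. Of 9 mouse introns that dendrites and somas shared, intron 6 of Gria4 was 4.68-fold higher in dendrites (191.8 against 41.0 RPM, counting interval of the ratio 3.68 to 6.03), whereas introns 3, 5 and 11 of that gene were 7.30-fold, 55.3-fold and 12.1-fold higher in somas. Within Gria3, intron 3 was 3.44-fold higher in dendrites but introns 12 and 14 were 2.24-fold and 4.44-fold higher in somas, so that the gene stood higher in dendrites through introns 4 and 10, which somas did not list. Without the most read intron of each gene, the log2 ratio of mouse Gria4 was -1.85 and that of rat Gria4 -1.71, both under the 4-fold distance, and that of mouse Gria3 0.60. The study kept contigs of at most 400 nt for whole cells, but the lists hold longer ones. With the introns that had a contig within that limit, the ratio of rat Gria4 was -1.77 and that of mouse Gria3 3.09. Both settings took as total of a list the reads of the introns left in it.

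The places of the contigs were compared between the mouse lists. Joined wherever they overlapped, the 123 mouse contigs of the 4 genes gave 102 places, of which 85 were in 1 list, 13 in 2 lists, 4 in 3 lists and none in all 4. These are 83.3%, 12.7%, 3.92% and 0%, where all genes gave 82.7%, 13.8%, 2.78% and 0.765%. Gria4 held 3 of the 4 places in 3 lists. In the fourth, in intron 4 of Gria3, a cardiomyocyte contig overlapped a dendrite contig on one side and a BAT contig on the other. Among introns that 2 lists shared, 8 of 21 dendrite contigs overlapped a soma contig and 8 of 20 soma contigs overlapped a dendrite contig, where all genes gave 34.5% and 44.9%. Of soma contigs 9 of 30 overlapped a BAT contig and of BAT contigs 9 of 34 a soma contig (all genes, 42.1% and 27.8%), and of dendrite contigs 3 of 23 overlapped a BAT contig and of BAT contigs 3 of 32 a dendrite contig (29.4% and 24.8%). Of soma contigs 0 of 7 overlapped a cardiomyocyte contig and of cardiomyocyte contigs 0 of 4 a soma contig, where all genes gave 46.6% and 42.8%. Dendrites and cardiomyocytes overlapped at 2 of 9 and 2 of 7 contigs (27.2% and 32.2%), and BAT cells and cardiomyocytes at 2 of 7 and 2 of 5 (39.7% and 54.5%). The shares of dendrites and somas in each other were thus near those of all genes, while the counts with cardiomyocytes are small.

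**Figure D3:**
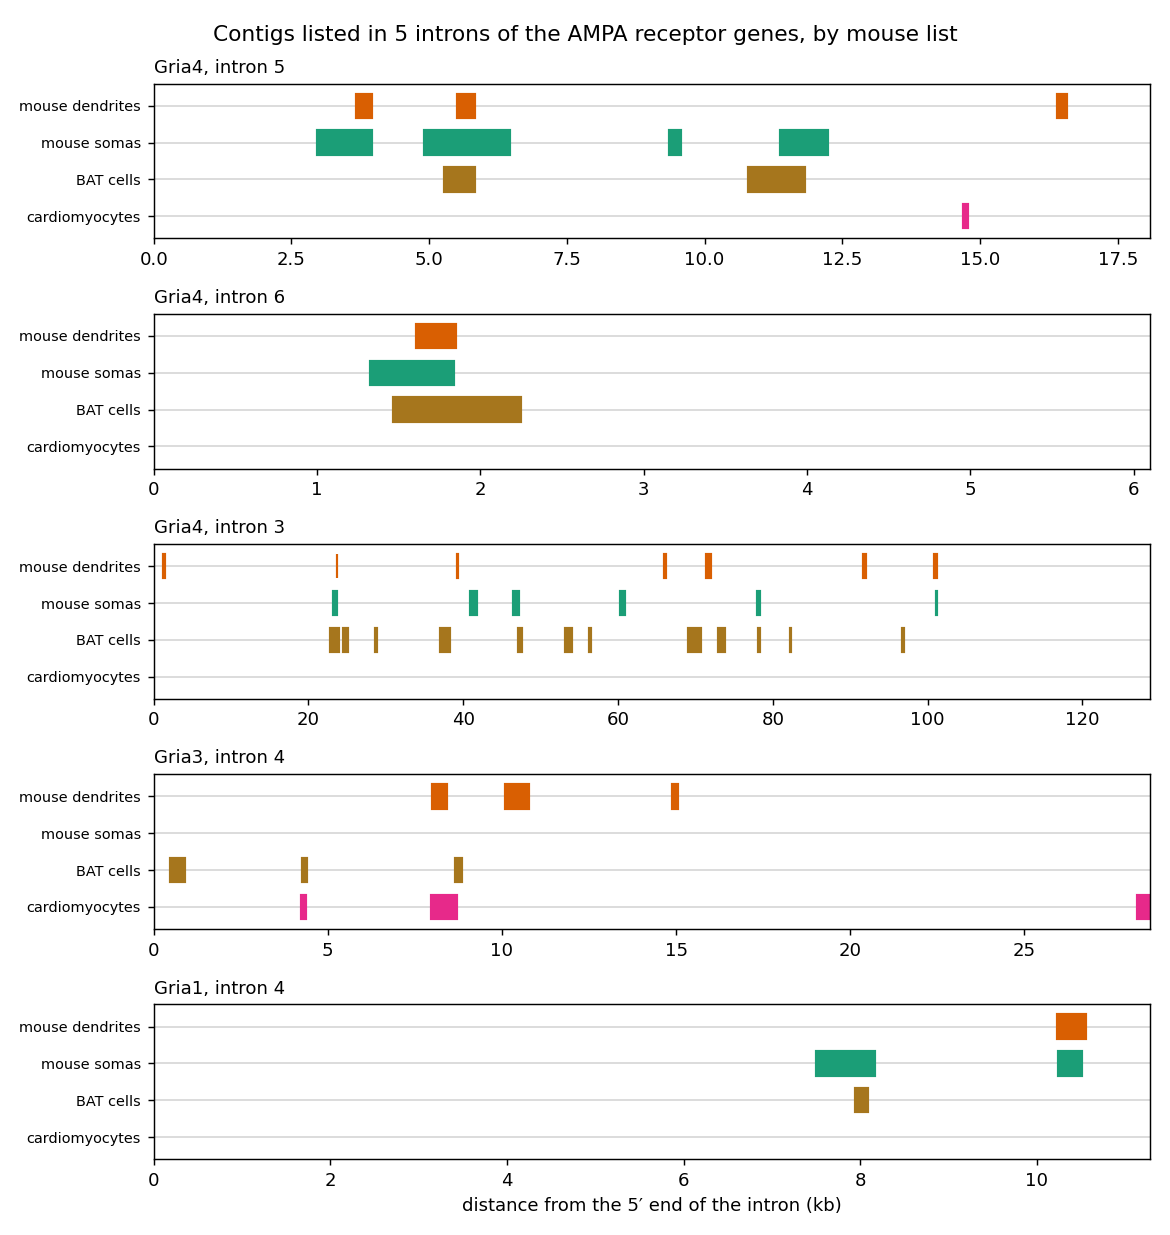
Contigs of the 4 mouse lists along 5 introns, each drawn to scale as a bar at its distance from the 5′ end of the intron in kb, 1 row per list. Bars stand above each other in introns 5 and 6 of Gria4 for dendrites, somas and BAT cells, and in intron 4 of Gria3 for dendrites and cardiomyocytes.

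Of the 61 annotated introns of the 4 mouse transcripts, 31 had a contig in at least 1 mouse list, 19 in at least 2 and 8 in at least 3, while 30.8%, 12.2% and 4.24% of the 148014 introns of all matched transcripts were. The share listed was 36.1% in mouse somas (22 introns, interval 25.2 to 48.6), 27.9% in BAT cells (17, interval 18.2 to 40.2), 23.0% in mouse dendrites (14, interval 14.2 to 34.9) and 11.5% in cardiomyocytes (7, interval 5.67 to 21.8). Of the 31 introns of Gria3 and Gria4, the members that the cardiomyocyte list names, the 7 are 22.6% (interval 11.4 to 39.8). Beside them, 11.96%, 21.9%, 15.9% and 14.7% of the introns of all matched transcripts in those lists were listed. Intron 1 of each gene was without a contig, as was intron 2, which spans 170501 nt in Gria1 and 75600 nt in Gria3. Listed introns had a median of 9493 nt and those never listed one of 3084 nt, beside 2610 and 1070 nt over all matched transcripts. Among introns over 5000 and up to 20000 nt, 18 of 22 were listed, and of those over 20000 nt 7 of 12. Of those over 1000 and up to 5000 nt 5 of 18 were listed, and of those up to 1000 nt 1 of 9. All matched transcripts gave 52.6%, 34.5%, 37.8% and 15.2% in these classes, in that order.

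The contigs were short beside their introns. Their median length was 294 nt in mouse dendrites, 370 nt in mouse somas, 260.5 nt in BAT cells and 242.5 nt in cardiomyocytes, and they covered 2.43% of the intronic length of Gria1 and 2.32% of that of Gria4 in mouse somas. An intron carried several contigs in 45.5% of the cases in mouse somas and 47.1% in BAT cells, where all introns gave 14.1% and 22.2%. The median GC content of the contigs was lowest in Gria2 (32.2%, 5 contigs) and highest in Gria1 (43.8%, 25 contigs), with Gria4 at 35.2% (55 contigs) and Gria3 at 37.8% (38 contigs). With the intron divided into 3 equal stretches, the 5′ one held 47 of the 123 contigs, the middle one 35 and the 3′ one 41, that is 38.2%, 28.5% and 33.3%, where all mouse contigs gave 32.4%, 35.7% and 31.8%.

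None of the 123 contigs overlapped an annotated exon of any transcript, where 5.04% of all contigs did in mouse dendrites, 9.59% in mouse somas, 7.51% in BAT cells and 11.4% in cardiomyocytes. Within 100 nt of an exon lay 1 of 28 contigs in mouse dendrites, 5 of 43 in mouse somas, 2 of 42 in BAT cells and 2 of 10 in cardiomyocytes, where all contigs gave 20.2%, 29.1%, 37.1% and 44.1%. The shares near an exon were thus lower for the AMPA receptor genes in each of the 4 lists, with few contigs behind each. Long introns leave more room far from exons, and how far their length goes with these shares was not tested.

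Since the amplification starts from a poly(T) primer, adenine tracts of the intron were looked up beside the contigs. A run of at least 10 adenines lay within 300 nt downstream of 1 of 28 contigs in mouse dendrites, 4 of 43 in mouse somas, 3 of 42 in BAT cells and 2 of 10 in cardiomyocytes, where the shares of all contigs were 8.1%, 18.5%, 7.36% and 9.53%. Tracts at the end of a contig were counted separately. At the 3′ end, within 50 nt on either side, a run of at least 8 adenines lay at 5 of 28 contigs in mouse dendrites (17.9%, interval 7.88 to 35.6), 16 of 43 in mouse somas (37.2%, interval 24.4 to 52.1), 3 of 42 in BAT cells (7.14%, interval 2.46 to 19.0) and 5 of 10 in cardiomyocytes (50%, interval 23.7 to 76.3). All contigs gave 16.7%, 28.9%, 12.9% and 20.3%, which lie within those intervals for dendrites, somas and BAT cells and below the interval for cardiomyocytes. This end was chosen after the positions of the contigs had been seen.

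At the 5′ end, runs of at least 8 thymines, which are adenines on the other strand, lay at 7 of 28 contigs in mouse dendrites, 1 of 43 in mouse somas, 3 of 42 in BAT cells and 0 of 10 in cardiomyocytes, where all contigs gave 24.2%, 14.9%, 12.9% and 9.72%. In mouse somas the adenine runs thus outnumbered the thymine runs, and in mouse dendrites they did not. The libraries do not keep the strand, so reads of an antisense transcript cannot be told apart from those of the gene.

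**Figure D4:**
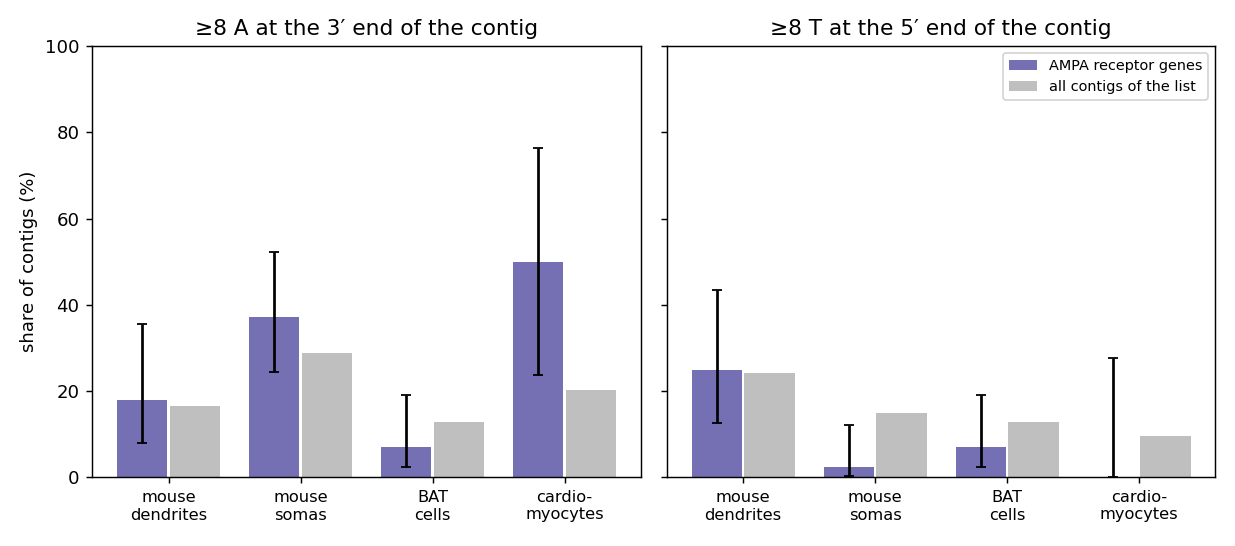
Share of contigs (%) with a run of at least 8 adenines within 50 nt of the 3′ end (left) and of at least 8 thymines within 50 nt of the 5′ end (right), on the strand of the gene, by mouse list. Violet bars are the AMPA receptor genes with 95% Wilson intervals, grey bars all contigs of the list, and the violet bar of mouse somas stands at 37.2% on the left.

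Partners of the receptor were taken from a list of 30 genes, of which 20 had an intron in at least 1 of the 6 lists. There were 12 in mouse dendrites, 13 in mouse somas, 12 in rat dendrites, 10 in rat somas, 10 in BAT cells and 7 in cardiomyocytes. Of the 16 partners in any mouse list this is 75% in mouse dendrites, 81.25% in mouse somas, 62.5% in BAT cells and 43.75% in cardiomyocytes, beside 69%, 47.3%, 82% and 49.8% of all genes in any mouse list. Of the 14 in any rat list it is 85.7% in dendrites and 71.4% in somas, beside 78.5% and 59.4% of all genes. Mouse dendrites had Dlg2 first (3685 reads), a scaffold of the postsynaptic density, then its relative Dlg1 (632 reads), which binds GluA1, and Nsf (169 reads), an ATPase that binds GluA2. Mouse somas had Dlg2 (5152 reads), Nsf (1050 reads) and Grip1 (330 reads), whose PDZ domains bind GluA2 and GluA3.

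Rat dendrites had Cacng2 first (1553 reads), the gene of stargazin, the auxiliary subunit that brings the receptor to the synapse, then Dlg1 (457 reads) and Nsf (155 reads). Rat somas had Grip1 (4938 reads), Cacng8 (2046 reads), of the same family as stargazin, and Adar (533 reads), an RNA-editing deaminase. The 10 partners without a listed intron included Cnih2 and Cnih3, auxiliary subunits, and Adarb1, the deaminase that edits the Q/R site. The median over the listed partners was 39.5 reads in mouse dendrites and 48 in mouse somas, beside 78 and 46 over all genes of those lists. It was 11 reads in rat dendrites and 371.5 in rat somas (all genes, 32 and 54), and 123.5 in BAT cells and 231 in cardiomyocytes (all genes, 169 and 158).

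Kainate and NMDA receptors, other ionotropic glutamate receptors, were summed by family for each list. The kainate receptor genes (Grik1 to Grik5) gave 397 RPM in mouse dendrites, 2851 in mouse somas, 142 in BAT cells, 0.328 in cardiomyocytes, 37.7 in rat dendrites and 2091 in rat somas. The NMDA receptor genes gave 391, 1305, 49.4, 28.8, 708 and 277 in the same order. Kainate genes were thus higher in somas than in dendrites in both species, while NMDA genes were higher in somas in mouse and in dendrites in rat. The sum of the AMPA receptor genes was higher in somas in both species, but in rat this direction turned over under both settings named above for rat somas, which were not applied to the other families.

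**Figure D5:**
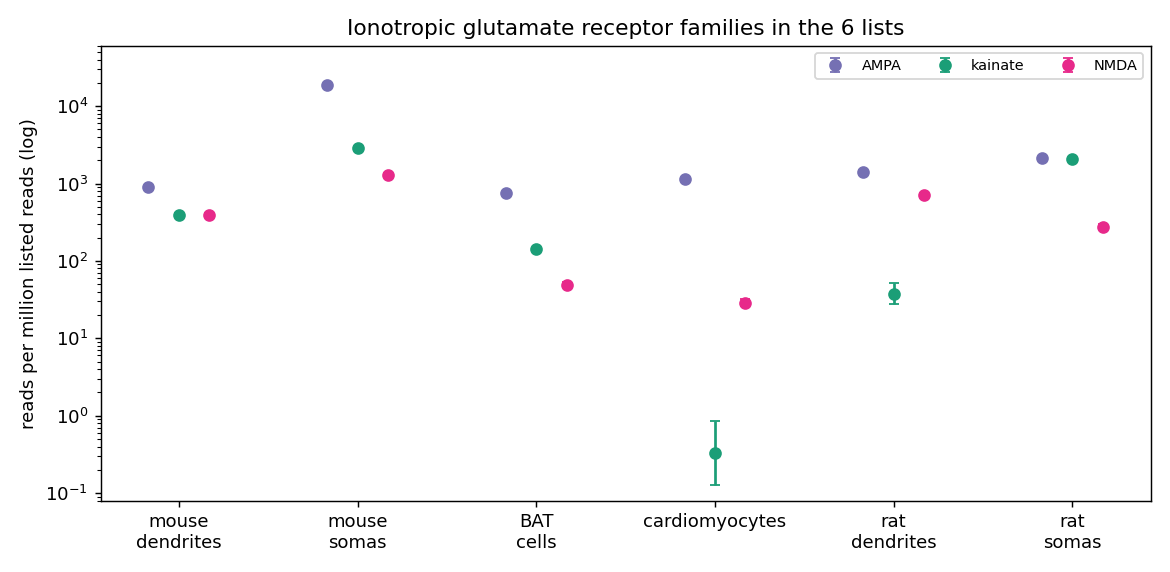
Listed reads in RPM (log axis) of 3 families of ionotropic glutamate receptor genes in each of the 6 lists, with 95% counting intervals, which are mostly smaller than the points. The sums are not divided by intron length, so a family is compared across lists.

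Genes with the most similar pattern over the 6 lists were found by the distance of log2(RPM + 1) among 4492 genes (for Gria1, 4493) in at least 1 mouse and 1 rat list. For Gria3 they were Ptk2 (distance 1.80), Macf1 (2.29) and Sgcd (2.77), for Gria2 Max (2.30), Arv1 (2.79) and Crtac1 (2.83), and for Gria1, entered at 0 in rat, Pim2 (2.39) and Igsf11 (3.98). Gria4 had no gene as close, the first being Rasgrf2 (5.07), Fbxo11 (5.35) and Cacna1b (5.51). The distances rest on 6 pooled lists and describe levels only.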

How the data were processed

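Intronic reads were analysed in 6 lists, each pooling the libraries of a condition. According to the methods of the study, the authors trimmed the reads, aligned them to mm9 or rn4 with the RUM pipeline, kept reads with 1 position that fell into introns, left out introns holding a predicted gene, a poly(A) site or reads at a splice junction alone, and joined neighbouring reads into contigs. The counts, as deposited, are raw reads per intron, repeated on each contig of an intron and taken here once.

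Python 3.11.15, pandas 2.3.3, scipy 1.17.1, pysam 0.24.0 and matplotlib 3.10.9 were used. Positions were shifted to count from 1. For mouse, 12866 of the 13156 transcripts named were found in GENCODE (NCBIM37) by the place of their contigs. Log2 ratios used an offset of 0.5 reads. Shares carry 95% Wilson intervals and ratios exact binomial intervals, all of counting error only. With pooled lists no test between conditions could be made. The scripts were tested on simulated data. Rat intron lengths and rat sequence were not analysed here, since only the mouse genome was used. The text names the 2 most read introns of each gene in each list with their positions, the 3 most read partners in each neuronal list and the 3 genes most like each member (for Gria1, 2). A few genes are not reported here, and neuronal marker counts leave them out. Members and lists were chosen with earlier results of these data known. Alternatives were limits on contig length and reads, other totals, offsets and tract definitions, and leaving out the most read intron.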

Additional observations from a re-analysis of the deposited data

How the results depend on the processing

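No paired analysis was possible because each list sums its libraries in a single column, and for the same reason no library could be left out. Of 138 alternative values, 82 stayed within their counting interval, within 1.5 times of a count or on their side of the 4-fold distance, and no log2 ratio changed direction. Where a value moved and no construction is named, the cause was not tested. The totals of reads sequenced are those the study gives for the neuronal libraries, and the others were not used here.

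Limits on reads leave fewer introns by construction. With at least 2 to the power of 8 reads per intron, 4 introns were left in mouse dendrites, 7 in mouse somas, 4 in BAT cells, 2 in rat dendrites and 2 in rat somas. With at least 32 reads, 6 were left in BAT cells, 4 in rat dendrites and 2 in rat somas, and with at least 4 reads 10 in BAT cells. Contigs of at most 400 nt left 3 introns in rat somas. The share of the 61 mouse introns was 24.6% in mouse somas with at least 32 reads, and in BAT cells 16.4% with at least 4 and 9.84% with at least 32.

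The levels that follow, apart from those per reads sequenced, take as total only the reads of the introns left in the list. The level of the 4 genes in RPM, with introns holding a contig of at most 400 nt, was 1478 in mouse dendrites, 38788 in mouse somas, 1405 in BAT cells, 2876 in cardiomyocytes, 2015 in rat dendrites and 30.6 in rat somas. Without introns with a contig over an exon it was 995, 22050, 863 and 1433 in the mouse lists in that order. None of the 4 genes lost an intron there, so these rises are by construction, from the smaller total. Without the most read intron of each gene of a list the level was 2184, 20971, 870.3, 2501, 5526 and 81.4 in the 6 lists. With at least 32 reads per intron it was 19219 in mouse somas. Set against the reads sequenced in place of those listed, a total added after seeing the data, it was 46.5 in mouse dendrites, 690.3 in mouse somas, 26.7 in rat dendrites and 55.2 in rat somas.

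Log2 ratios crossed the 4-fold distance for mouse Gria3 (3.09) and rat Gria4 (-1.77) with contigs of at most 400 nt, for mouse Gria4 (-1.85) and rat Gria4 (-1.71) without the most read introns, and for rat Gria2 (-2.32) per reads sequenced. Without the most read introns no ratio could be had for Gria2 in either species or for rat Gria3, and with contigs of at most 400 nt none for rat Gria2, since 1 of the lists then held no intron. Tracts at the 3′ end, a place also chosen after seeing the data, gave 17.9% of contigs in mouse dendrites and 37.2% in mouse somas as runs of 8 adenines, and as windows rich in adenine 32.1% in mouse dendrites, 48.8% in mouse somas, 19.0% in BAT cells and 60% in cardiomyocytes. An overlap of at least 50 nt in place of 1 nt left 7 of 21 dendrite contigs over a soma contig, and between BAT cells and cardiomyocytes 1 of 7 and 1 of 5 contigs in place of 2 of 7 and 2 of 5. Per kb of intron, leaving out the most read intron was a setting added after seeing the data, with the full total of the list kept. Gria4 then stood behind Gria1 and Gria2 behind Gria3 in mouse somas.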
